A study of Mus musculus with 2 samples.

Results

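The miR-29 family of mouse consists of 4 microRNA genes, Mir29a, Mir29b-1, Mir29b-2 and Mir29c, described here in lung before birth. The members were taken by name: the Ensembl identifiers that the GENCODE annotation of mm10 gives to these symbols were looked up among the 1973 microRNA genes of the deposited count tables, and all 4 were found. The rule uses names and no measured value, although the family was picked for description with earlier results of these data known. Small RNA came from whole lung of B6NCrl mouse embryos at embryonic day 15.5, healthy and of mixed sex, with no treatment or genetic change in the labels. The 2 libraries form 1 group, with 78 embryos pooled for replicate 1 and 62 for replicate 2. Both pools carry the same donor identifier in the labels, although they hold different numbers of embryos. Their spread can include differences between embryos as well as pooling, dissection and library preparation, which cannot be told apart. The design holds no library from after birth.

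MicroRNAs are short RNAs cut from hairpin precursors. They pair with messenger RNAs through the seed, bases 2 to 8 from the 5′ end, and lower the output of those messages. The miR-29 family is best known for targeting messages of collagens and other matrix proteins and of the DNA methyltransferases that set methylation de novo. In lung it is studied in fibroblasts and fibrosis, and its levels in many tissues are known to climb as cells mature.

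The mature products of the 3′ arm are shown first because they define the family and because their likeness bears on how reads can be counted. All 4 genes were matched by symbol to RefSeq sequences on GRCm38.p6. The capitals mark the seed, and the gene pair Mir29b-1 and Mir29b-2 yields 1 and the same 3′ product:
miR-29a-3p: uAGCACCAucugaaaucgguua
miR-29b-3p: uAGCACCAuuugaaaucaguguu
miR-29c-3p: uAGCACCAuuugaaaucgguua

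All 4 genes shared the seed AGCACCA, and none of the other genes among the 1738 mature entries of the RefSeq table had it. Counted from 1 at the 5′ end, miR-29a-3p and miR-29c-3p differed by C10U alone, so that 21 of 22 bases were identical. From miR-29c-3p to miR-29b-3p the differences were G18A, U21G and A22U over the 22 bases compared, and the 17 bases from the 5′ end were identical. The 5′ products of the 29b genes differ from each other, and are shown because they are the mature products that tell the copies apart. The capitals again mark bases 2 to 8:
miR-29b-1-5p: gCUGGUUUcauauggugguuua
miR-29b-2-5p: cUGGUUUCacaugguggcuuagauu

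The genes lie at a pair of loci in mm10. Mir29a (ENSMUSG00000065610.1, chromosome 6, 31062660 to 31062747) and Mir29b-1 (ENSMUSG00000065604.1, chromosome 6, 31063023 to 31063093) sit on the minus strand, 275 bp apart. GENCODE M21 places no gene around Mir29a, and Mir29b-1 overlaps the noncoding gene Gm27019 by 2 bp. Mir29b-2 (ENSMUSG00000065412.2, chromosome 1, 195037040 to 195037120) and Mir29c (ENSMUSG00000065548.1, chromosome 1, 195037547 to 195037634) sit on the plus strand, 426 bp apart. Both lie whole within an exon of the noncoding host gene A330023F24Rik, and both lie in an exon of a transcript of Cd46 on the opposite strand. Positions were matched without the version suffix, which differs for the 29b genes between the deposited tables and M21.

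Replicate 1 held 5354530 counts on the annotated strand of microRNA genes and replicate 2 held 6489390. In CPM (counts per 1000000 such counts), 1 count was worth 0.187 in replicate 1 and 0.154 in replicate 2. A count of 0 allows a level of up to 3 counts, which is 0.560 and 0.462 CPM. Intervals and floors cover counting error only, since reads without molecular identifiers are not independent molecules. Markers of lung compartments were present in both libraries: all 5 microRNAs of epithelium (the miR-200 family), Mir126a of endothelium, and Mir143 and Mir145a of smooth muscle and mesenchyme passed 10 counts.

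The family, as counted on its genes, held a small part of the microRNA counts. Its 4 genes held 1016 counts in replicate 1, 0.0190% of the library (95% exact binomial interval 0.0178 to 0.0202), and 979 counts in replicate 2, 0.0151% (0.0142 to 0.0161). The mean share was 0.0170% ± 0.00275 (SD, n = 2). The intervals did not overlap, and replicate 1 was the higher. Reads with more than 1 mapping place, which can include those of miR-29b-3p, were taken to be outside these counts. The share of the mature miR-29 products was therefore not measured. In the labelled tissue, fewer cells of a type and less RNA per cell cannot be told apart.

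Mir29a was the member with the most counts. It had 747 counts in replicate 1, or 139.5 CPM (95% exact Poisson interval 129.7 to 149.9), and 669 counts in replicate 2, or 103 CPM (95.4 to 111). The mean was 121 ± 25.8 CPM (SD, n = 2), and replicate 1 was higher than replicate 2 beyond counting error. Mir29c, from the chromosome 1 locus, had 264 counts or 49.3 CPM (43.5 to 55.6) in replicate 1 and 298 counts or 45.9 CPM (40.9 to 51.4) in replicate 2. Its mean was 47.6 ± 2.39 CPM (SD, n = 2), and the intervals of its replicates overlapped. Mir29a lay above Mir29c in both libraries, with no overlap of the values or of their intervals.

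Mir29b-1 and Mir29b-2, the copies that give the same 3′ product, had few counts in these libraries. Reads that fit both copies were taken to be missing from both genes. Mir29b-1 had 2 counts in replicate 1 and 6 in replicate 2, which is 0.374 CPM (95% exact Poisson interval 0.0452 to 1.35) and 0.925 CPM (0.339 to 2.01). Mir29b-2 had 3 and 6 counts, or 0.560 CPM (0.116 to 1.64) and 0.925 CPM (0.339 to 2.01). In each library the intervals of the copies overlapped widely, and their order is not resolved. The level of Mir29b-1 in replicate 1 was below the floor of 3 counts.

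**Figure D1:**
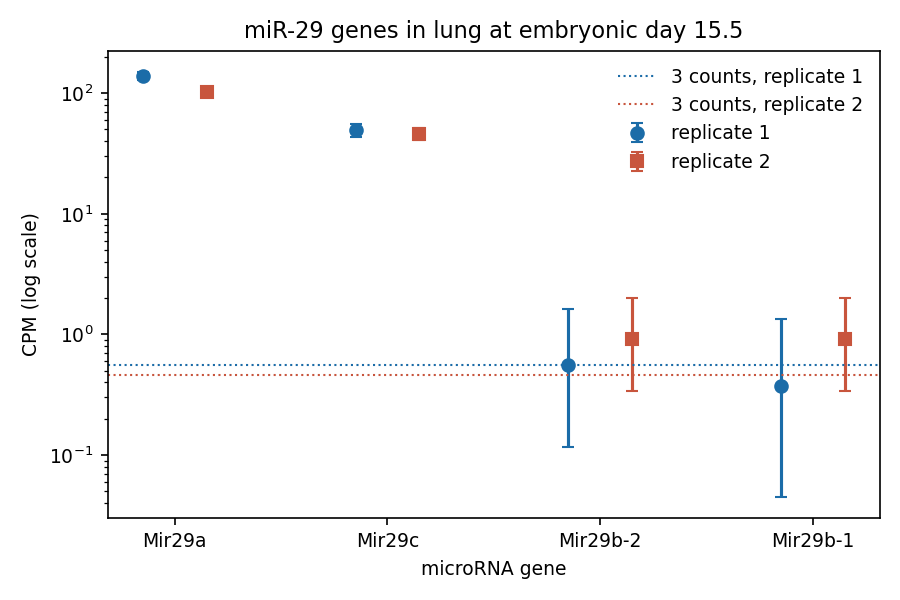
CPM on a log axis for each miR-29 gene, with replicate 1 as circles and replicate 2 as squares, 95% exact Poisson intervals as bars and the level of 3 counts in each library as dotted lines. Mir29a sits at 139.5 and 103 CPM and Mir29c at 49.3 and 45.9 CPM, while both 29b genes lie near the dotted lines, between 0.374 and 0.925 CPM.

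Detection was set at 10 or more counts in each library. Mir29a and Mir29c, 2 of the 4 members, passed, beside 18.1% of all genes in the tables (357 of 1973). Among the 916 tabulated genes with a mature sequence in RefSeq, 35.4% passed. No member had any count on the strand opposite its annotation, in either library, which allows up to 0.560 CPM in replicate 1 and 0.462 CPM in replicate 2.

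Within the family, Mir29a made up 73.5% of the counts in replicate 1 (95% exact binomial interval 70.7 to 76.2) and 68.3% in replicate 2 (65.3 to 71.2). Mir29c made up 26.0% (23.3 to 28.8) and 30.4% (27.6 to 33.4). The 29b genes together added 5 of 1016 counts and 12 of 979. Nearly all counted reads of the family thus came from Mir29a and Mir29c, whose 3′ products are not repeated whole elsewhere in the RefSeq precursors.

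The comparison of Mir29a with Mir29c asked how the leading genes of the 2 loci relate within each library. Both precursors are 88 nt long, so their ratio is the same per length. Mir29a exceeded Mir29c 2.83-fold in replicate 1 (95% exact binomial interval 2.46 to 3.27) and 2.24-fold in replicate 2 (1.96 to 2.58). The 3′ products of these genes differ at 1 of 22 bases, and how mismatches were treated is unknown. The intervals do not cover reads assigned to the other gene. The mean log2 ratio was 1.33 ± 0.236 (SD, n = 2), so the difference was larger than the spread between replicates. An exact 2-sided permutation test gave p = 0.333 (0.333 after Benjamini-Hochberg adjustment over the 2 ratios tested), the smallest that 2 values against 2 allow, and the design cannot pass 0.05. Here and for the loci below, the test took the values as unpaired, although both sides stand in each library.

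Summed by locus, the chromosome 6 genes held 749 and 675 counts and the chromosome 1 genes 267 and 304. The log2 ratio of the loci was 1.32 ± 0.239 (SD, n = 2; exact 2-sided permutation p = 0.333, adjusted 0.333), and 1.41 when summed CPM was divided by the summed precursor lengths of 159 and 169 nt. By these counted reads the chromosome 6 locus was the higher in both libraries. Each locus holds a 29b gene, and reads of their common 3′ product were taken to be missing from the sums. The output of each locus was therefore not measured. The ratio differed little from that of Mir29a over Mir29c, since the 29b genes add few counts on either side.

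Neighbours at a locus stood far apart. Mir29a exceeded Mir29b-1 by 373.5-fold in replicate 1 (95% exact binomial interval 103 to 3090) and by 111.5-fold in replicate 2 (51.0 to 305). Mir29c exceeded Mir29b-2 by 88.0-fold in replicate 1 (29.8 to 429) and by 49.7-fold in replicate 2 (22.6 to 136). The wide intervals come from the 2 to 6 counts of the 29b genes. Between those copies, the ratio of Mir29b-2 over Mir29b-1 was 1.50 in replicate 1 (0.172 to 17.96) and 1.00 in replicate 2 (0.267 to 3.74). The intervals do not resolve a difference between the counted reads of the copies. Reads of their common 3′ product cannot be assigned to either copy.

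These folds are counted reads and not levels of the mature microRNAs, because the tables list reads with more than 1 mapping place apart from the genes, 3588198 in replicate 1 and 4144809 in replicate 2, and such reads were taken to be missing from every gene. The whole 23 nt of miR-29b-3p are present in both 29b precursors, within a shared stretch of 25 nt. Every 18-, 20- and 22-nt window of that product is therefore found in the other copy. The 5′ products printed above had no 18-nt window in another RefSeq precursor, nor did either product of Mir29a. For miR-29c-3p the longest stretch found elsewhere was 17 nt, in both 29b precursors. Which arm the 2 to 6 counts came from is not recorded in a table of precursors, and how many miR-29b-3p reads are among those reads was not measured, so the 29b counts are not read as a low level of miR-29b. The genome outside the RefSeq precursors was not searched.

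**Figure D2:**
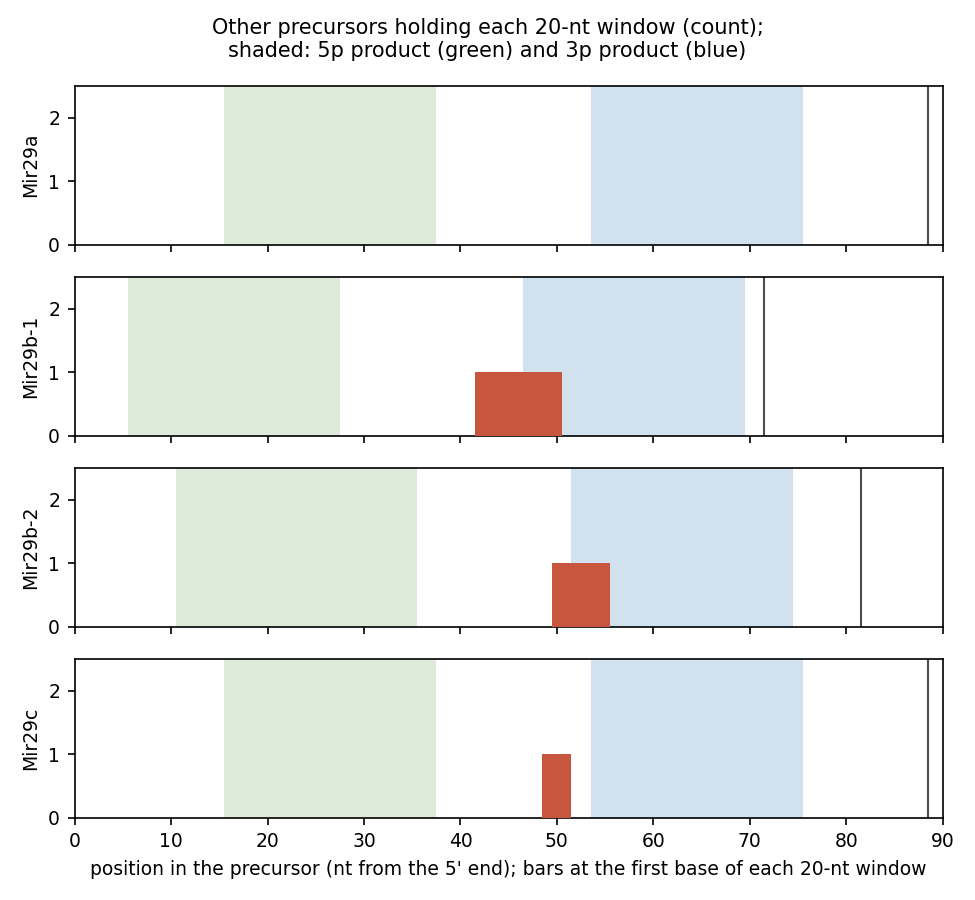
Number of other RefSeq precursors that hold each 20-nt window, along each miR-29 precursor in nt from its 5′ end, with the 5p product shaded green, the 3p product shaded blue and the precursor end as a vertical line. Shared windows number 0 of 69 in Mir29a, 9 of 52 in Mir29b-1, 6 of 62 in Mir29b-2 and 3 of 69 in Mir29c, where they begin before the 3p product.

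Along the precursors, Mir29a had no shared window at any of these lengths. Mir29c had 3 of 69 windows of 20 nt in common with another precursor, all beginning upstream of its mature 3′ product, with a longest shared stretch of 22 nt in Mir29b-1. In Mir29b-1, 9 of 52 windows were shared, and in Mir29b-2, 6 of 62, in each case at the 3′ arm.

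Detection was also counted by how much of a gene's product is repeated. Of the 50 tabulated genes with some, but not all, mature products whole in another precursor, 36 (72.0%) were detected, against 280 of 831 (33.7%) of genes with no product shared. Genes with every product shared were detected in 8 of 35 cases (22.9%). Among detected genes, the median was 42.8 CPM with some products shared and 191 CPM with none shared. With every product shared it was 88.0 CPM. Mir29b-1 and Mir29b-2 belong to the group with some products shared and are among its 14 undetected genes, of which 8 had a lower mean than Mir29b-1 and 4 had 0 counts. Only 869 of the precursors searched carried the name of a counted gene, while 916 genes were sorted into these groups. A product shared only with a gene outside the search would count as not shared. These counts are descriptions, and the part of sequence sharing in any member's level was not tested.

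The 29b genes were also set beside other microRNAs whose copies are named -1 and -2. For every pair, reads that fit both copies were taken to be missing from both genes. The values below therefore compare counted reads and not levels of the mature microRNAs. Of 42 such pairs, 19 had both copies detected, 2 had 1 copy detected, and 21 had neither, of which 14 had no count at all. The Mir29b pair stood in place 24 by summed mean CPM, at 0.649 ± 0.390 CPM for Mir29b-1 and 0.742 ± 0.258 CPM for Mir29b-2 (SD, n = 2). At the top of the order, Mir92-1 reached 3155 ± 59.0 CPM and Mir92-2 205 ± 32.4 CPM, Mir16-1 2165 ± 112 CPM and Mir16-2 441 ± 24.7 CPM (SD, n = 2). Mir181a-1 (1896 ± 27.8 CPM) exceeded Mir181a-2 (69.3 ± 1.62 CPM), and Mir181b-2 (1343 ± 105 CPM) exceeded Mir181b-1 (28.4 ± 3.92 CPM; SD, n = 2). Other pairs stood nearer each other, such as Mirlet7a-1 (328 ± 17.4 CPM) and Mirlet7a-2 (268 ± 20.1 CPM; SD, n = 2). For the 29b copies, with 2 to 6 counts each, the intervals given above do not resolve how far apart they are.

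**Figure D3:**
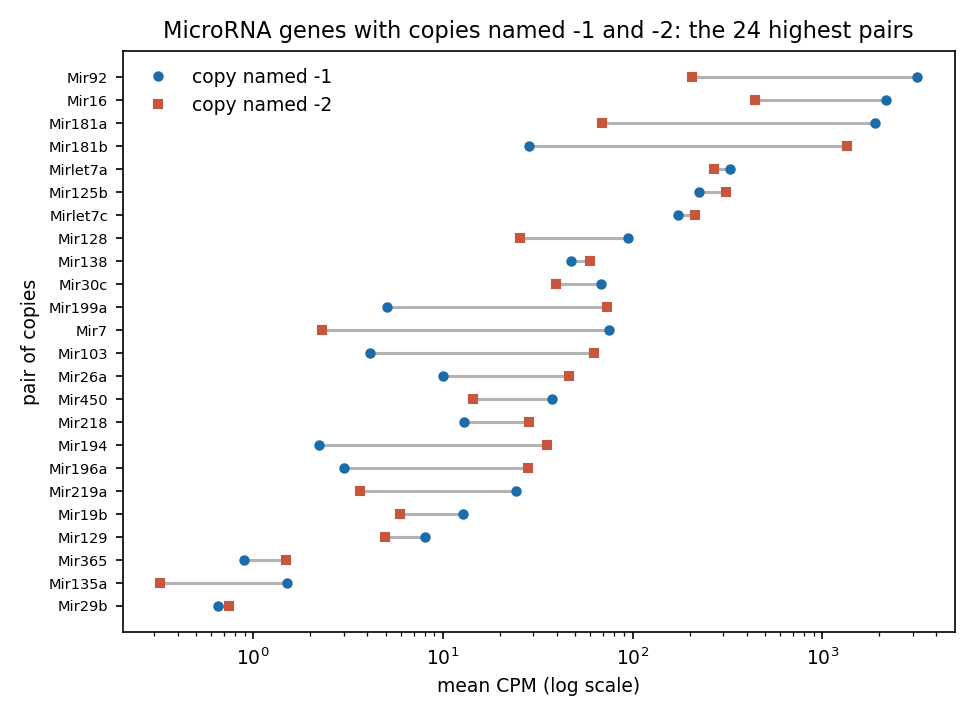
Mean CPM of 2 replicates on a log axis for the copy named -1 (circles) and the copy named -2 (squares) of the 24 pairs with the highest summed mean CPM, each pair joined by a line. The Mir29b pair is the lowest of those drawn, with its copies at 0.649 and 0.742 CPM.

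Among all microRNA genes, Mir29a took rank 180 by mean CPM (175 in replicate 1 and 185 in replicate 2) and Mir29c rank 220 (222 and 221). The median detected gene stood at 123 CPM, close to Mir29a. Of the detected genes, 179 were above Mir29a, 39 lay between it and Mir29c, and 137 were below Mir29c. Mir29b-2 came at rank 465 and Mir29b-1 at rank 485, ranks set by a handful of counts. CPM is not divided by precursor length, and per nucleotide of precursor Mir29a and Mir29c ranked 184 and 223.

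By the difference in mean CPM over the 2 libraries, the genes most like Mir29a in level were Mir500 (129 ± 8.07 CPM) and Mir30b (123 ± 5.67 CPM) above it, and Mir5099 (118 ± 12.9 CPM) and Mir679 (114 ± 5.47 CPM) below it (SD, n = 2). None of these differed from Mir29a beyond the spread of Mir29a between replicates. Around Mir29c stood Mir6236 (50.6 ± 30.4 CPM) and Mir33 (48.7 ± 2.83 CPM), the microRNA known from cholesterol metabolism, and below it Mir138-1 (47.4 ± 8.22 CPM) and Mir877 (47.0 ± 6.48 CPM; SD, n = 2). All 4 lay within the spread of Mir29c or of the gene itself. The precursors of these neighbours ran from 69 to 123 nt, and the likeness is one of level alone.

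The microRNAs commonly studied beside miR-29 in lung fibroblasts and fibrosis were set beside the family as a list. All 15 listed genes were detected, beside 18.1% of all counted genes and 35.4% of those with a mature sequence in RefSeq. Their median was 1062 CPM, against 123 CPM for all detected genes. The list was chosen with earlier results of these data known, so neither value is an independent result. Of the 15, 9 exceeded Mir29a, beside 179 of all 357 detected genes, and 5 of the 15 are the miR-200 family genes of epithelium. The highest were Mirlet7d (21967 ± 764 CPM), Mir429 (13376 ± 314 CPM) and Mir200c (10967 ± 222 CPM) of the epithelial miR-200 family, and Mir30a (11451 ± 1368 CPM; SD, n = 2). Mirlet7d was counted at 181 times the level of Mir29a and Mir30a at 94.4 times. Mir26a-2 (46.3 ± 5.20 CPM), Mir326 (41.2 ± 3.37 CPM), Mir26a-1 (10.1 ± 0.0485 CPM) and Mir199a-1 (5.10 ± 1.94 CPM; SD, n = 2) were the 4 listed genes below Mir29c in mean CPM. The Mir26a genes and Mir199a-1 belong to pairs of copies, and reads that fit both copies were taken to be missing from every gene. Their counts are therefore not levels of the mature microRNAs.

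The replicates differed for Mir29a and not detectably for Mir29c. The log2 ratio of replicate 2 over replicate 1 was -0.44 for Mir29a (95% exact binomial interval -0.59 to -0.28), a level 1.35-fold higher in replicate 1 (1.22 to 1.50). For Mir29c the log2 ratio was -0.10 (-0.35 to 0.14), so that the interval allows from 1.27-fold higher in replicate 1 to 1.10-fold higher in replicate 2. Such intervals compare the reads of 2 libraries and not conditions. Of all 357 detected genes, 25.2% had an interval wholly on the side of replicate 1 and 19.6% on that of replicate 2, and 1 of the 2 detected members was on the side of replicate 1.

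In the spread of detected genes, whose absolute log2 ratio had a median of 0.14 and a 90th percentile of 0.55, 49 genes differed more between the replicates than Mir29a and 214 more than Mir29c. The ratio of Mir29a over Mir29c was 1.26 times higher in replicate 1 than in replicate 2 (95% exact conditional interval 1.03 to 1.54). The ratio therefore differed between the libraries by more than counting error, and Mir29a was the higher in each. For Mir29b-1 and Mir29b-2 the log2 ratios were 1.31 (-1.18 to 4.65) and 0.72 (-1.50 to 3.35), and neither interval resolves a direction.

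**Figure D4:**
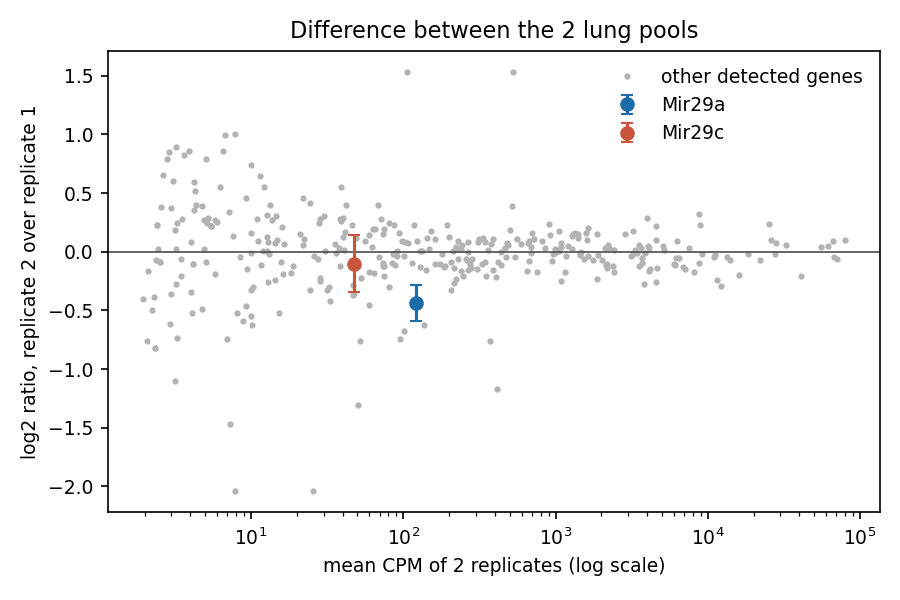
Log2 ratio of replicate 2 over replicate 1 against mean CPM (log axis) for the detected genes (grey points), with Mir29a and Mir29c in colour and their 95% exact binomial intervals as bars. Mir29a lies at -0.44 with its whole interval below 0, while the interval of Mir29c crosses 0.

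Markers of other tissues moved between the same libraries. The liver microRNA Mir122 stood at 470.1 CPM in replicate 1 and 278 CPM in replicate 2. The neural list stood at 166 and 108 CPM, which is Mir137 alone, the 1 of its 5 genes detected. Mir124a-1, Mir124a-2, Mir124a-3 and Mir9-2 had 0 counts. These are named as numbered copies, and reads that fit several copies were taken to be missing from every gene. Their 0 counts therefore do not show absence. The 4 striated muscle genes summed to 928 and 1237 CPM. Among them Mir208a was higher in replicate 1 (573 and 255 CPM). Mir208b (269 and 779.6 CPM), Mir206 (54.2 and 156 CPM) and Mir499 (31.6 and 46.4 CPM) were higher in replicate 2. The 3 blood genes summed to 1369 and 1481 CPM. Of these, Mir451a was higher in replicate 2 (445 and 585 CPM) and Mir223 in replicate 1 (685 and 648 CPM). Mir144 stood at 238 and 248 CPM, a difference within counting error. Of the lung lists, the 5 epithelial genes summed to 31937 and 31476 CPM, Mir126a stood at 68906 and 67001 CPM, and Mir143 with Mir145a at 77625 and 83086 CPM. By their intervals, 2 epithelial genes were higher in replicate 1 and 2 in replicate 2. The part of these cell types in the difference of Mir29a between the pools was not tested.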

How the data were processed

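The authors deposited raw read counts per microRNA gene on mm10 with annotation release M4, per the file headers of each library's readme. Each table held 3 columns of counts, read from their totals as either strand, annotated strand and opposite strand, and 4 summary lines, which stayed out of library sizes. Those lines took, in replicates 1 and 2, 31.4% and 30.6% of reads for multiple mapping, 16.8% and 17.2% for no mapping, and 4.78% and 4.22% for mapping outside genes; none were ambiguous. The names of the aligner and counter were not given in the sources used here, so how they treat mismatches between like sequences is unknown.

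CPM was computed from the annotated-strand column over all gene rows. GENCODE M21 on GRCm38, which mm10 denotes, gave names and positions: 1894 of 1973 identifiers matched without version suffix, 1815 with it. Sequences came from RefSeq (GRCm38.p6, 1005 precursors). Intervals were 95% exact Poisson or binomial. The interval functions were tested on simulated data. Alternatives were counts on either strand, each replicate alone, the most abundant gene left out of the total, minimum counts of 1 and 100, edgeR 4.0.16 TMM and DESeq2 1.42.0 size factors. Division by precursor length was chosen after seeing the data.

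Members and lists were chosen with earlier results of these data known. Named were the 4 members, the 2 genes above and 2 below each detected member in mean CPM, up to 4 of the highest genes of the fibrosis list, and the 4 highest pairs of copies; the listed genes below Mir29c, the Mirlet7a copies and the markers with their values were named after their values were seen. Python 3.11.15, scipy 1.17.1 and R 4.3.3 were used.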

Additional observations from a re-analysis of the deposited data

How the results depend on the processing

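Of 50 alternative values for 16 results, none reversed and 45 stayed within the spread between replicates or on the same side of the interval. Values from a single replicate could not fail, since with 2 replicates each always lies within the SD of their mean. The either-strand ratios between genes were also fixed, because no member had counts on the opposite strand. The number 45 is therefore not a measure of stability. With the most abundant gene left out of the total, Mir29c was 51.7 CPM. With at least 1 count in both libraries in place of 10, 4 members passed, since the minimum alone removes the 29b genes. By counts without regard to strand Mir29a ranked 191 and Mir29c 230, and per nucleotide of precursor (chosen after seeing the data) Mir29c ranked 223. Leaving out each replicate in turn, Mir29a ranged from 103 to 139.5 CPM, Mir29c from 45.9 to 49.3 CPM, Mir29b-1 from 0.374 to 0.925 CPM and Mir29b-2 from 0.560 to 0.925 CPM. The family's share then ranged from 0.0151% to 0.0190%, and the log2 ratio of Mir29a over Mir29c from 1.17 to 1.50. For Mir29b-1 the value without either replicate thus moves by up to 1.74-fold, at 2 and 6 counts. The log2 ratio between replicates for Mir29a was -0.41 with edgeR TMM scaling and -0.42 with DESeq2 size factors. No comparison between groups was possible because the series holds 1 group. The ratios within each library keep the pairing of genes by library, which the permutation test did not use. At 2 to 6 counts, depth limits what can be said of the 29b genes, as does the unmeasured number of their reads that map to several places, and counts of precursors do not separate the arms.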

Other observations

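Mir3102 was the only other gene of the RefSeq table whose mature product shares bases 2 to 7 with the miR-29 family, on miR-3102-3p. It had 512 counts in replicate 1 and 661 in replicate 2, or 95.6 and 102 CPM, between Mir29a and Mir29c in replicate 1 and close to Mir29a in replicate 2. Its precursor gives several mature products in RefSeq, and the table does not separate them.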
